A study of Mus musculus with 6 samples.

Results

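Heat shock proteins and co-chaperones were followed in adult mouse aortic valves as 10 genes, Hspa1a, Hspa1b, Hspa8, Hspb1, Dnajb1, Hsph1, Hsp90aa1, Hspd1, Hspe1 and Bag3. They were taken by symbol from the 23107 genes of the deposited count table, and all 10 were found in it. The table came from aortic valve RNA of 3 control and 3 mutant libraries, made from mice 4 months old of a strain given as Outbred. The mutants carried the caAcvr1 transgene, a constitutively active form of the BMP type I receptor Acvr1 that is switched on by Cre recombinase, together with Nfatc1Cre, in which Cre is expressed from the Nfatc1 locus. In this model the recombination took place in the endocardium, in the valve interstitial cells and in cells where leaflet and wall meet, and not in myocardium or smooth muscle. The controls were labelled wild type. In the study, littermates with caAcvr1 but no Nfatc1Cre, with Nfatc1Cre but no caAcvr1, or with neither, served as controls, and which of these were sequenced was not stated. Sex, the number of mice per library and any sequencing batch were not stated either, so that p-values measure the spread between these libraries.

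Heat shock proteins are molecular chaperones that bind unfolded or damaged proteins and help them to fold, to be held in solution or to be handed on for degradation. Some members, such as Hspa8 and the mitochondrial pair Hspd1 and Hspe1, are made all the time. Hspa1a, Hspa1b, Hspb1, Dnajb1, Hsph1, Hsp90aa1 and Bag3 can be raised further when heat shock factor 1 binds heat shock elements in their promoters. The promoter windows of Hspd1 and Hspe1 hold matches to such elements as well, given below. Small heat shock proteins and Bag3 are abundant in muscle, where they help to maintain contractile filaments, and the genes of the inducible group can also respond to mechanical strain and to the handling of tissue.

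The libraries held 32218345 to 55728852 assigned fragments. Counts were scaled to CPM, the usual common library total, after TMM normalization, so that a level is a share of a library and does not compare genes of different length. For Acvr1, the gene that the transgene copies, the controls averaged 59.0 ± 9.21 CPM and the mutants 54.7 ± 4.28 CPM (SD, n = 3 each). These groups overlapped, with a fitted log2 difference of -0.11. Markers of the expected tissue were present, with a summed level of 13350 to 17255 CPM for 9 valve interstitial or fibroblast markers and 2098 to 3121 CPM for 9 endothelial markers. Cardiac muscle RNA was present as well, and 16 cardiac markers summed to 14320 to 44915 CPM in the controls and 23148 to 47210 CPM in the mutants. Control replicate 2 had the lowest cardiac sum and stood apart, being the highest library for 24.4% and the lowest for 24.8% of the 15354 genes tested. The macrophage markers were the one marker list whose sum did not overlap between the groups, at 726 to 835 CPM in the controls and 920 to 1002 CPM in the mutants. The 8 smooth muscle markers had a median log2 fold change of -0.87, 7 of them were below 0, beside 7341 of all 15354 genes, and for 3 all mutants lay below all controls, beside 4.83% of all genes. Their sums overlapped narrowly, at 6937 to 13987 CPM in the controls and 3865 to 7054 CPM in the mutants. In bulk tissue, fewer cells of a type and less RNA per cell cannot be told apart.

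None of the 10 chaperone genes passed the comparison of mutants with controls. In the quasi-likelihood test of edgeR with Benjamini-Hochberg adjustment over all genes tested, 0 of 10 had an adjusted p under 0.05, beside 0 of 15354 genes (0%). In DESeq2 the count was also 0 of 10, beside 26 genes (0.169%). At an unadjusted p under 0.05 in edgeR, 2 of the 10 were higher in the mutants, namely Hspa1a and Hspa1b, and 0 were lower, beside 1.59% of all genes higher and 1.86% lower. For none of the 10 did every mutant lie above every control, a pattern seen in 4.04% of the genes tested, and for none did every mutant lie below every control, as 4.83% of the genes did. Of the fitted log2 fold changes of the 10 genes 8 were above 0 and 2 below, where 8013 of all 15354 genes were above 0. The median of the 10 was 0.14, beside 0.0097 over all genes tested. It was 0.037 without mutant replicate 1, 0.24 without mutant replicate 2 and 0.27 without control replicate 1. The 95% interval of the fold change included 0 for 8 of the 10 genes.

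**Figure D1:**
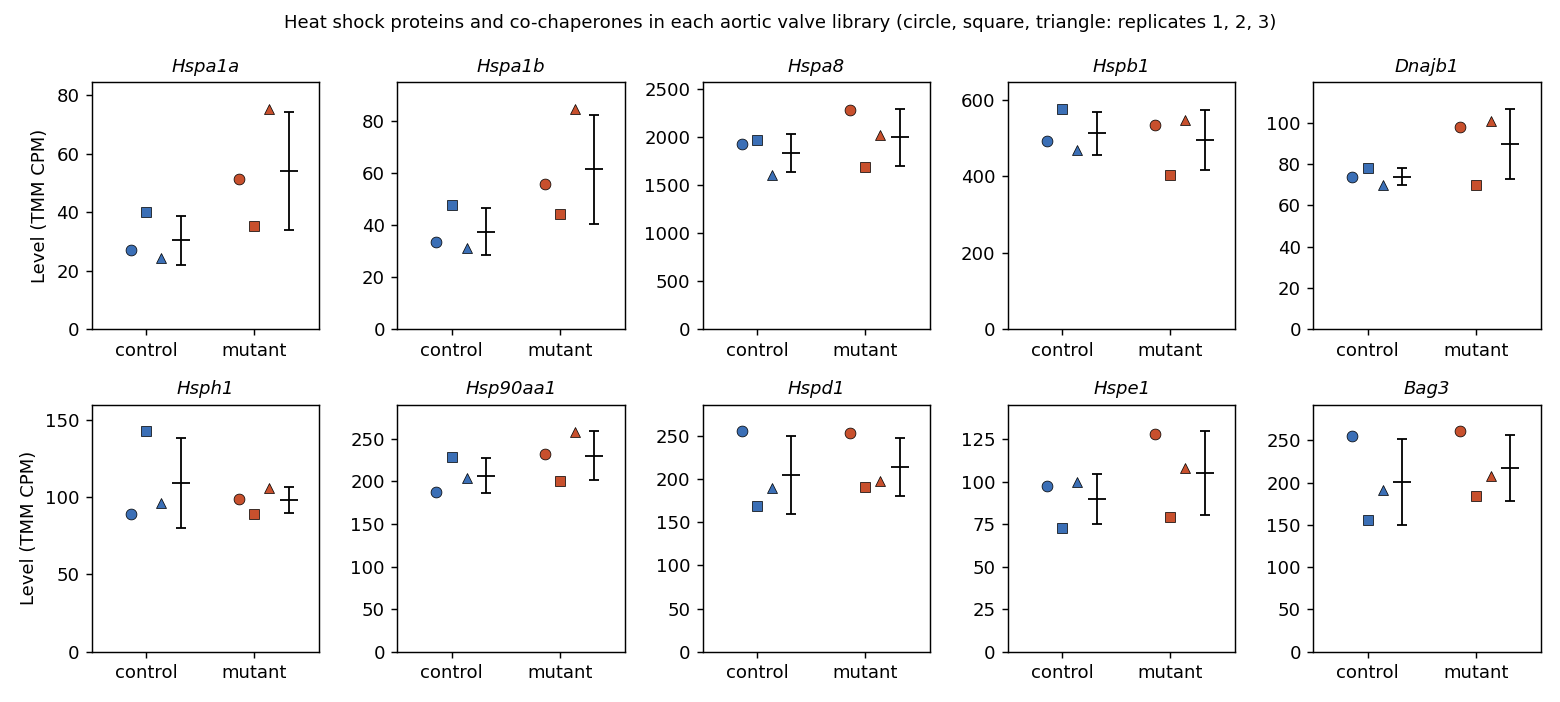
Level of each of the 10 genes in the 3 control (blue) and 3 mutant (red) libraries, in TMM-normalized CPM on linear axes that start at 0, with the mean and SD of each group in black to the right of its points. The groups overlap in every panel, and the highest points of Hspa1a and Hspa1b are those of mutant replicate 3, at 75.3 and 84.8 CPM.

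Levels were also divided by transcript length, so that genes could be set beside each other. Per kilobase of the longest annotated transcript, Hspa8 had the highest level, with 801 ± 102 CPM (SD over the 6 libraries), and Hspb1 came next with 542 ± 66.8. The mitochondrial co-chaperonin Hspe1 followed with 126 ± 25.8 CPM per kilobase. Hspd1 with 86.4 ± 15.0, Bag3 with 81.6 ± 16.2 and Hsp90aa1 with 66.6 ± 7.86 lay below it, and the ranges of neighbours in this order overlapped. Dnajb1 and Hsph1 had nearly equal means, 27.3 ± 4.71 and 27.2 ± 5.31 CPM per kilobase, but their order differed by library. Hsph1 was the higher in control replicate 2 (37.5 against 26.0). Dnajb1 was the higher in mutant replicates 1 (32.7 against 26.0) and 3 (33.7 against 27.8). The inducible Hsp70 genes had the lowest means, Hspa1b with 17.7 ± 6.98 and Hspa1a with 14.2 ± 6.36. In mutant replicate 3, however, Hspa1b (30.3) lay above Hsph1 (27.8). Hspa8 exceeded Hspb1 in all libraries, from 670 to 953 against 435 to 620 CPM per kilobase, and so did Hspb1 exceed Hspe1. These levels depend on which transcript is taken as the length.

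Hspa1a and Hspa1b encode the stress-inducible cytosolic Hsp70, a chaperone strongly induced by heat in many cells, and they had the largest fold changes of the 10. Each is a gene of 1 exon on the minus strand of chromosome 17 in GRCm38 (mm10), Hspa1a at chr17:34969190-34972156 and Hspa1b at chr17:34956436-34959238. In order of replicate number, which is used throughout, the controls gave 27.0, 39.9 and 24.3 CPM of Hspa1a and the mutants 51.3, 35.4 and 75.3 CPM. Hspa1b was read at 33.4, 47.9 and 31.2 CPM in the controls and at 55.7, 44.2 and 84.8 CPM in the mutants. In both genes mutant replicates 1 and 3 lay above all controls, while mutant replicate 2 lay below control replicate 2. Mean Hspa1a was 30.4 ± 8.36 CPM for the controls and 54.0 ± 20.1 CPM for the mutants (SD, n = 3 each), and the fitted log2 fold change was 0.83 (standard error 0.30, 95% interval 0.11 to 1.55). Mean Hspa1b was 37.5 ± 9.11 and 61.6 ± 20.9 CPM, with a fitted value of 0.71 on the log2 scale (standard error 0.27, 95% interval 0.072 to 1.36). The unadjusted p in edgeR was 0.030 for Hspa1a and 0.034 for Hspa1b, and the adjusted p was 0.999 for both in edgeR and 0.650 and 0.780 in DESeq2. Without mutant replicate 3 the log2 fold changes were 0.51 and 0.41, and without control replicate 2 they were 1.07 and 0.93. The unadjusted p of both missed 0.05 without mutant replicate 3, without control replicate 1 or without control replicate 3, and that of 1 of them without mutant replicate 1. With the replicate number as a block in the fit, both missed it as well, with log2 fold changes of 0.80 and 0.69.

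The Hspa1a and Hspa1b rows are not independent measurements. Their coding sequences of 1926 and 1929 bases differed at 8 of 1926 aligned bases, an identity of 99.6%. Over the longest annotated transcripts, of 2967 and 2803 bases, 58.8% of all stretches of 50 bases in Hspa1a occurred unaltered in Hspa1b. How Cuffdiff divided fragments that fit both genes is thus part of each value. Hspa1a took 43.8% to 45.5% of the fragments of the pair in the controls and 44.5% to 47.9% in the mutants, a nearly constant division. Summed over the pair, the controls held 60.4, 87.9 and 55.5 CPM and the mutants 107, 79.5 and 160 CPM. The log2 fold change of the sum was 0.77, with an adjusted p of 0.999 in edgeR. Hspa1a also overlaps Gm20481, a gene on the opposite strand, by 2225 bases. Whether strand was used in the counting was not stated, so reads of the 2 genes could not be told apart.

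The proximal promoters of the pair are shown because heat shock factor 1 acts through them and because they are as alike as the genes. The sequences come from RefSeq promoter windows of GRCm38.p6, each from 250 bases before to 50 bases after a transcription start, and the last 150 bases before the start are printed, 5′ to 3′ on the strand of the gene. Capitals mark an 8-letter match to GAANNTTC or TTCNNGAA, which are 2 inverted GAA units of a heat shock element.

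Hspa1a, chr17:34972157-34972306, minus strand: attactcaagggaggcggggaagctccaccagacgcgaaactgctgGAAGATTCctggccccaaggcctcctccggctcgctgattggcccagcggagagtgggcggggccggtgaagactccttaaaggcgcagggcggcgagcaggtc
Hspa1b, chr17:34959239-34959388, minus strand: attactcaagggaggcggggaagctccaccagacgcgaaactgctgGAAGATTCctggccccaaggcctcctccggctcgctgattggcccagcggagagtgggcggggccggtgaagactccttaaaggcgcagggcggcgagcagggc

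These printed stretches were identical at 149 of 150 bases, and the full 250 bases before the start at 247. Both hold their match 104 bases before the start. Of the 10 genes, 8 had a window in the RefSeq table, all except Hspa8 and Hsp90aa1. Either motif occurred in 7 of these 8, beside 17.0% of 27025 genes with a window. The member with a window and no match was Dnajb1. Each motif reads the same on both strands, and the 2 motifs may overlap by sharing a unit. A match to these letters describes the sequence and does not show that a factor was bound in these valves.

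Hspa8 encodes the constitutive cytosolic Hsp70, which folds newly made proteins and strips clathrin from vesicles, and it lies at chr9:40800984-40810087. Its level was 1929, 1972 and 1605 CPM in the controls and 2283, 1687 and 2024 CPM in the mutants. Mutant replicates 1 and 3 lay above all controls, and mutant replicate 2 lay between control replicates 3 and 1. On the log2 scale the fold change was 0.12 (standard error 0.21, 95% interval -0.39 to 0.63, adjusted p = 0.999 in edgeR). Leaving out mutant replicate 1 gave 0.015, leaving out control replicate 3 gave 0.032 and leaving out mutant replicate 2 gave 0.23. Snord14c, Snord14d and Snord14e, small nucleolar RNA genes, lie within Hspa8. The coding sequences of Hspa1a and Hspa8 were 75.0% identical and shared no stretch of 50 bases, so that a read of this length would not fit both without mismatch.

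Hspa1a and Hspa1b were set against Hspa8 within each library, a ratio that does not depend on the scaling of the library. The inducible pair made up 3.03%, 4.27% and 3.34% of the fragments of the 3 genes in control replicates 1, 2 and 3. In mutant replicates 1, 2 and 3 it made up 4.48%, 4.50% and 7.33%. Every mutant lay above every control in this share, although control replicate 2 and mutant replicate 1 were close. The summed level of the pair itself did not separate the groups. It was lower in mutant replicate 2 (79.5 CPM) than in control replicate 2 (87.9 CPM), and so was Hspa8, at 1687 against 1972 CPM. The share was computed after the levels of these genes had been seen and is given as a description without a test. The macrophage marker sum also separated the groups, with 4 of its 8 tested markers higher in every mutant than in every control, beside 4.04% of all genes, and the smooth muscle markers had the negative median given above. The part of either in this share was not tested.

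**Figure D2:**
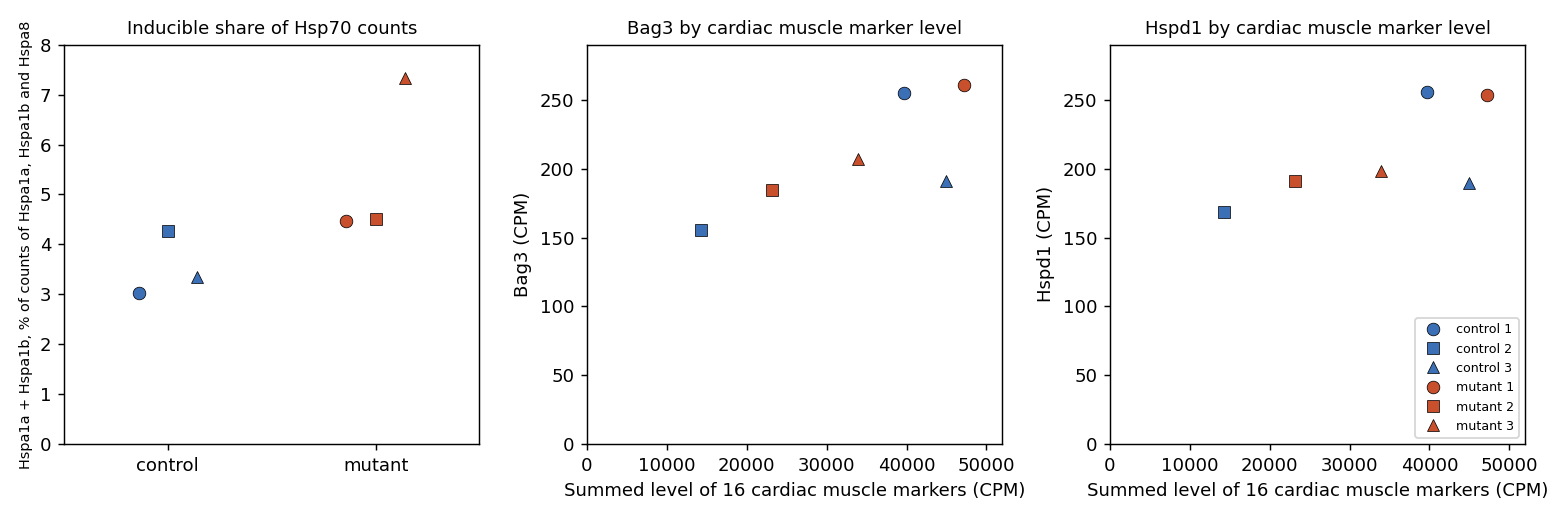
Left, fragments of Hspa1a and Hspa1b as a percentage of those of Hspa1a, Hspa1b and Hspa8 in each library. Middle and right, levels of Bag3 and Hspd1 (CPM) against the summed level of 16 cardiac muscle markers (CPM), with blue for controls, red for mutants and circle, square and triangle for replicates 1, 2 and 3, all axes starting at 0. The share runs from 3.03% to 4.27% in the controls and from 4.48% to 7.33% in the mutants, and control replicate 2 is lowest for the cardiac sum and for both genes.

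Dnajb1 and Hsph1 encode partners of Hsp70. Dnajb1, at chr8:83608193-83612653, is an inducible J protein that delivers substrates and stimulates the ATPase of Hsp70. It was read at 73.8, 78.0 and 69.9 CPM in the controls and at 98.1, 70.1 and 101 CPM in the mutants, again with mutant replicates 1 and 3 above all controls and mutant replicate 2 among them. The control mean was 73.9 ± 4.05 CPM and the mutant mean 89.7 ± 17.1 CPM (SD, n = 3). Its fitted log2 difference was 0.28 (standard error 0.15, 95% interval -0.079 to 0.64), with an unadjusted p of 0.108 and an adjusted p of 0.999 in edgeR. Leaving out mutant replicate 3 gave 0.19, and leaving out mutant replicate 2 gave 0.43.

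Hsph1, the inducible Hsp110 that exchanges nucleotide on Hsp70, lies at chr5:149614287-149636376 on the minus strand. Its levels were 88.8, 143 and 95.8 CPM in the controls and 99.0, 89.0 and 106 CPM in the mutants. Control replicate 2 was the highest library, and the other 5 lay between 88.8 and 106 CPM. The fitted log2 difference was -0.16 (standard error 0.19, adjusted p = 0.999 in edgeR), and without control replicate 2 its sign turned, to 0.087. The direction of Hsph1 therefore rests on 1 control library.

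Hsp90aa1, at chr12:110690605-110702728 on the minus strand, encodes the inducible cytosolic Hsp90, which holds kinases and steroid receptors in an activatable state. Its level was 188, 228 and 204 CPM in the controls and 233, 200 and 258 CPM in the mutants, and mutant replicates 1 and 3 were the highest of all. Hsp90aa1 differed between mutants and controls by 0.16 on the log2 scale (standard error 0.14, 95% interval -0.17 to 0.48, adjusted p = 0.999 in edgeR). It was 0.068 without mutant replicate 3, 0.092 without control replicate 1, 0.24 without control replicate 2 and 0.25 without mutant replicate 2. Hsp90ab1, the constitutive partner gene, averaged 1134 ± 49.9 CPM in control and 1188 ± 128 CPM in mutant valves (SD, n = 3 each). Hsp90aa1 made up 13.6%, 17.1% and 15.6% of the fragments of both genes in the controls and 14.9%, 15.6% and 18.3% in the mutants, with overlapping groups.

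Hspb1, at chr5:135887919-135889563, encodes a small heat shock protein that holds unfolded proteins and steadies actin filaments. It was read at 491, 576 and 470 CPM in the controls and at 535, 404 and 547 CPM in the mutants. The lowest library was mutant replicate 2 and the highest control replicate 2. Hspb1 differed between mutants and controls by -0.05 on the log2 scale (standard error 0.17, 95% interval -0.46 to 0.36, adjusted p = 0.999 in edgeR). The sign turned without either of these libraries, to 0.078 without mutant replicate 2 and to 0.047 without control replicate 2. Its promoter holds 2 separate matches, 117 and 97 bases before the start, and is printed in the same way for comparison with that of the Hspa1 genes.

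Hspb1, chr5:135887769-135887918, plus strand: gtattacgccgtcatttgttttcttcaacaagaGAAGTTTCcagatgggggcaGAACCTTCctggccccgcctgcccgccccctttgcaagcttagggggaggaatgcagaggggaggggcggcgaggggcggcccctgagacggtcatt

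Hspd1 and Hspe1 encode the mitochondrial chaperonin Hsp60 and its lid Hsp10, which enclose proteins for folding in the matrix. They lie head to head on chromosome 1, Hspd1 at chr1:55077835-55088243 on the minus strand and Hspe1 at chr1:55088132-55091307 on the plus strand, and their annotations overlap by 112 bases. Before the start of Hspe1, and within the first exon of a longer Hspd1 transcript, lies an array of 3 overlapping matches, which fell within the promoter windows of both genes and is shown with 6 bases on each side.

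Hspe1, chr1:55088053-55088082, plus strand: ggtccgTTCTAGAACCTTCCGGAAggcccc

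Of the members with a promoter window, Hspd1, Hspe1 and Hsph1 had at least 2 overlapping matches, which make 3 units, beside 0.662% of all genes. In Hsph1 there were 2 such matches, both after the start. Hspd1 was read at 256, 169 and 190 CPM in the controls and at 253, 191 and 198 CPM in the mutants. Hspe1 was read at 97.3, 72.8 and 99.6 CPM in the controls and at 128, 79.4 and 108 CPM in the mutants. Both genes were lowest in control replicate 2, and in neither did the groups separate. The log2 fold change was 0.07 for Hspd1 (standard error 0.19) and 0.23 for Hspe1 (standard error 0.20), each with an adjusted p of 0.999 in edgeR. That of Hspd1 turned sign without control replicate 2 (-0.053) and without mutant replicate 1 (-0.072), and that of Hspe1 was 0.058 without mutant replicate 1, 0.098 without control replicate 2 and 0.39 without mutant replicate 2. Hspe1 made up 27.6% to 34.5% of the fragments of the pair in the controls and 29.4% to 35.2% in the mutants. The annotation names 5 pseudogene or related copies of Hspd1 and 6 of Hspe1, whose reads could have been shared in the counting.

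Bag3, at chr7:128523616-128546981, encodes a co-chaperone that releases substrates from Hsp70 and, with small heat shock proteins, directs damaged filament proteins to autophagy in muscle. Its level was 255, 156 and 191 CPM in the controls and 261, 184 and 207 CPM in the mutants. Control replicate 1 and mutant replicate 1 were the highest and control replicate 2 the lowest, so that the replicates of a group differed more than the group means did. Bag3 differed between mutants and controls by 0.12 on the log2 scale (standard error 0.21, 95% interval -0.39 to 0.62, adjusted p = 0.999 in edgeR). Leaving out mutant replicate 1 gave -0.037, leaving out control replicate 2 gave -0.035 and leaving out control replicate 1 gave 0.33.

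**Figure D3:**
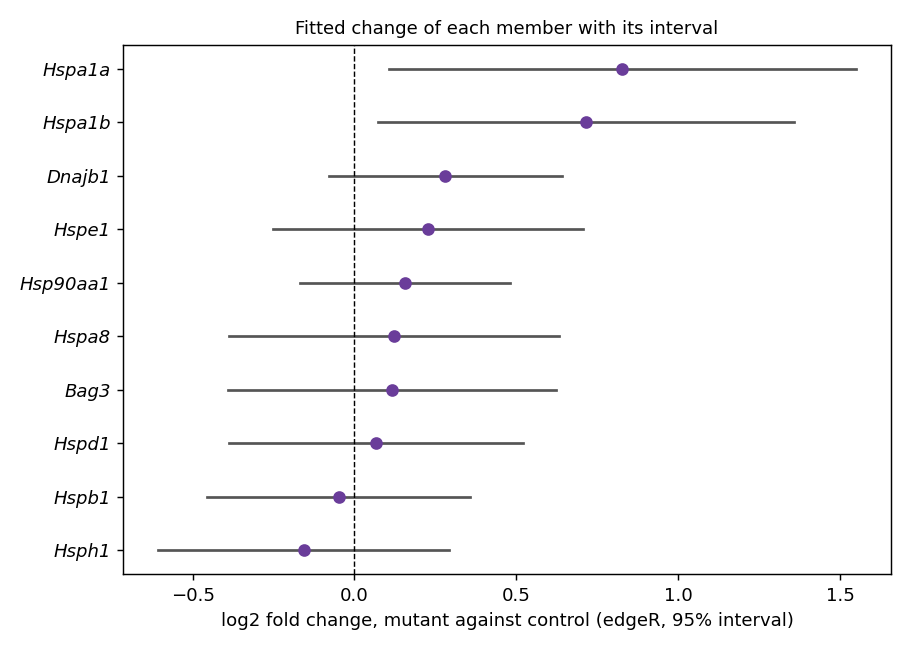
Fitted log2 fold change of each of the 10 genes, mutants against controls, from edgeR (points) with its 95% interval (lines) and a dashed line at 0. The intervals of Hspa1a and Hspa1b begin at 0.11 and 0.072, and the other 8 include 0.

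Levels of part of this group were set beside those of the 16 cardiac muscle markers, none of which separated the groups. The controls summed to 39733, 14320 and 44915 CPM and the mutants to 47210, 23148 and 33944 CPM. Bag3, Hspd1 and Hspe1 were lowest in control replicate 2, which had the lowest cardiac sum, and Bag3 and Hspe1 were highest in mutant replicate 1, which had the highest. Control replicate 3 had the second highest cardiac sum, yet Hspd1 was second lowest there. Bag3, at 191 CPM there, lay below its level in mutant replicate 3. Hspd1 and Bag3 thus did not follow the cardiac sum in every library. Hsph1 and Hspb1 were highest in control replicate 2, which also had the highest smooth muscle sum, 13987 CPM against 3865 to 7777 CPM in the other libraries. The part of smooth muscle RNA in these levels was not tested. With the cardiac marker score as a covariate, the log2 fold change was 0.027 for Bag3, -0.0062 for Hspd1 and 0.13 for Hspe1. It was -0.044 for Hsph1, -0.028 for Hspb1, 0.94 for Hspa1a and 0.81 for Hspa1b. Apart from this fit, the part of cardiac muscle RNA in the levels of these genes was not tested. Other small heat shock proteins of heart muscle were also lowest in control replicate 2. Hspb7 was read at 1669, 581 and 1051 CPM in the controls and at 1970, 1181 and 1328 CPM in the mutants. Cryab, the lens and muscle alpha B-crystallin, was read at 901, 454 and 708 CPM in the controls and at 1063, 597 and 820 CPM in the mutants. Hspa9, the mitochondrial Hsp70, was read at 436, 237 and 352 CPM in the controls and at 492, 328 and 324 CPM in the mutants. For each of these the groups overlapped.

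The 10 genes did not share 1 profile over the libraries. Hspa1a, Hspa1b, Dnajb1 and Hsp90aa1 were highest in mutant replicate 3, and Hspa8, Hspe1 and Bag3 in mutant replicate 1. Relative to each gene's own mean, the mean of the 10 on the log2 scale was -0.093, -0.027 and -0.22 in control replicates 1, 2 and 3. In mutant replicates 1, 2 and 3 it was 0.24, -0.18 and 0.28, so that mutant replicate 2 lay below control replicates 1 and 2. Of the 10 genes, 4 were highest in mutant replicate 3 and 3 in mutant replicate 1, where 16.3% and 19.5% of all genes tested had their highest value, and 4 were lowest in control replicate 3, where 11.1% of all genes had their lowest. Mutant replicate 3 was also the library with the fewest fragments, and control replicate 2 the one with the least cardiac RNA.

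**Figure D4:**
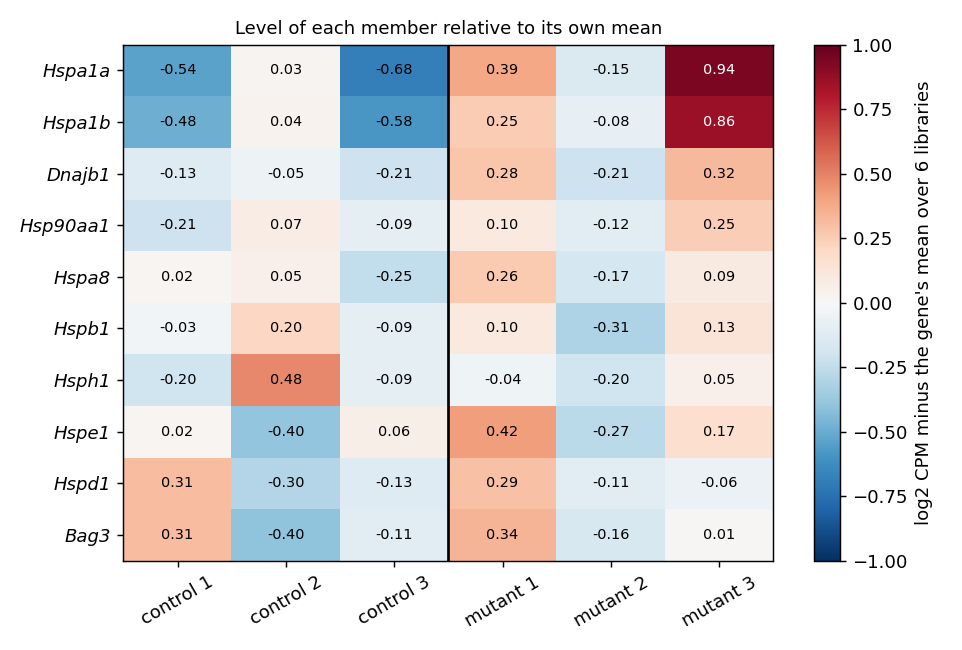
Level of the 10 genes (rows) in the 6 libraries (columns), as log2 CPM minus the mean of that gene over all libraries, with controls left and mutants right of the black line. Mutant replicate 3 reaches 0.94 for Hspa1a and 0.86 for Hspa1b, control replicate 2 reaches 0.48 for Hsph1, and Hspe1, Hspd1 and Bag3 have their lowest values in control replicate 2.

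The spread between replicates differed among the 10 genes. The SD of log2 CPM within groups was 0.47 for Hspa1a and 0.41 for Hspa1b, above that of 76.0% and 71.6% of the genes tested. For the other 8 it ran from 0.16 for Hsp90aa1 to 0.31 for Bag3, beside a median of 0.24 over all genes. The lowest count of any of them in a library was 1119.

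Regulators of the group showed no difference past the test. Hsf1, the factor that drives heat shock genes, averaged 61.6 ± 4.37 CPM in control and 59.4 ± 5.82 CPM in mutant valves (SD, n = 3 each), with a fitted log2 difference of -0.05. Hsf2, a related factor, had levels of 2.16 to 2.41 CPM in the controls and 2.15 to 2.68 CPM in the mutants. Hsbp1, which binds and restrains heat shock factor, had a log2 fold change of 0.07.

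The wider chaperone network was described by 9 further lists with 92 genes tested. In edgeR 0 of the 92 had an adjusted p under 0.05, and 0 had an unadjusted p under 0.05. Every mutant lay above every control in 4 of them and below in 3, beside 4.04% and 4.83% of all genes. Of the 92 fold changes 70 were above 0, where 8013 of all 15354 genes were. The median of the 92 was 0.054 on the log2 scale, beside 0.0097 over all genes tested.

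Among 8 other cytosolic Hsp70 and Hsp110 genes the median log2 fold change was 0.026. Hspa12b, an endothelial relative of Hsp70, was read at 36.5, 62.5 and 57.9 CPM in the controls and at 61.3, 90.5 and 72.0 CPM in the mutants, with mutant replicate 1 below control replicate 2 (log2 fold change 0.51, unadjusted p = 0.0625 in edgeR). Hspa1l, the neighbour of Hspa1a expressed mainly in testis, was low, at 3.03 to 7.35 CPM in the controls and 4.66 to 9.92 CPM in the mutants. Among 14 other Hsp90 and co-chaperone genes the median was 0.091. Ahsa2, an activator of the Hsp90 ATPase, had a log2 fold change of 0.28, and Unc45a, a myosin chaperone that works with Hsp90, one of -0.42, both with overlapping groups.

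Of 14 other J proteins the median was 0.013. Dnajb4, a close relative of Dnajb1, was read at 114, 124.5 and 109 CPM in the controls and at 131, 125.1 and 151 CPM in the mutants, so that every mutant lay above every control, although mutant replicate 2 and control replicate 2 nearly met. Dnajb4 had a fold change of 0.23 on the log2 scale (standard error 0.11, adjusted p = 0.999 in edgeR). Dnaja1 had the same log2 fold change, 0.23, with overlapping groups. Among 8 BAG and other exchange factors the median was 0.052. Bag4 lay lower in every mutant, at 19.8 to 21.0 CPM against 21.8 to 26.0 CPM in the controls, and Bag2 overlapped with a log2 fold change of 0.28.

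Of 9 other small heat shock proteins 7 passed the filter on low counts, with a median of 0.17. Hspb11 lay lower in every mutant, at 6.40 to 7.39 CPM against 7.46 to 9.09 CPM. Hspb7 had the largest log2 fold change of the list, 0.44 (standard error 0.40), Cryab had 0.27, Hspb6 0.06 and Hspb8 0.03.

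In the organelles, 11 of 11 other mitochondrial chaperones and proteases had a fold change above 0, from 0.0028 to 0.16 on the log2 scale. Grpel1, the exchange factor of mitochondrial Hsp70, had 0.13, and Hscb, a J protein for iron-sulfur cluster transfer, 0.15. The 8 subunits of the cytosolic chaperonin CCT all had a fold change above 0 as well, from 0.041 to 0.12, with 0.12 for Cct2 and 0.10 for Cct6a. These genes share the scaling of the libraries, and for none of them did the groups separate. Of 18 genes of the endoplasmic reticulum and its stress response, 12 were above 0 and the median was 0.045. Hspa5, the Hsp70 of that compartment, had a log2 fold change of 0.05. Dnajb9, a J protein partner of Hspa5, was read at 45.0, 49.7 and 44.9 CPM in the controls and at 52.5, 50.1 and 60.6 CPM in the mutants, with every mutant above every control (log2 fold change 0.23, adjusted p = 0.999 in edgeR). Herpud1 had 0.21 with overlapping groups.

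Immediate early genes, which are switched on within minutes by strain, growth factors or dissection, were followed because they respond to handling as inducible heat shock genes do. Of 22 genes 21 were tested, 18 had a fold change above 0, and the median was 0.18 on the log2 scale. Above 0 were 8013 of all 15354 genes tested, with a median of 0.0097. Every mutant lay above every control in 3 of the 21 and below in 0, beside 4.04% and 4.83% of all genes. Nr4a1, an orphan nuclear receptor, was read at 44.4, 42.7 and 42.4 CPM in the controls and at 54.9, 47.5 and 63.8 CPM in the mutants (log2 fold change 0.36, unadjusted p = 0.024, adjusted p = 0.999 in edgeR). Ier5, which is known to promote the activity of heat shock factor 1, was read at 72.9, 65.2 and 68.8 CPM in the controls and at 74.7, 84.9 and 81.5 CPM in the mutants (log2 fold change 0.22). Fos, at 105, 81.7 and 59.2 CPM in the controls and 150, 90.8 and 106 CPM in the mutants, had a log2 fold change of 0.50 with overlapping groups. Jun, Egr1 and Atf3 had log2 fold changes of 0.20, 0.18 and 0.25, also with overlapping groups. The part of handling in the levels of Hspa1a and Hspa1b was not tested.

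**Figure D5:**
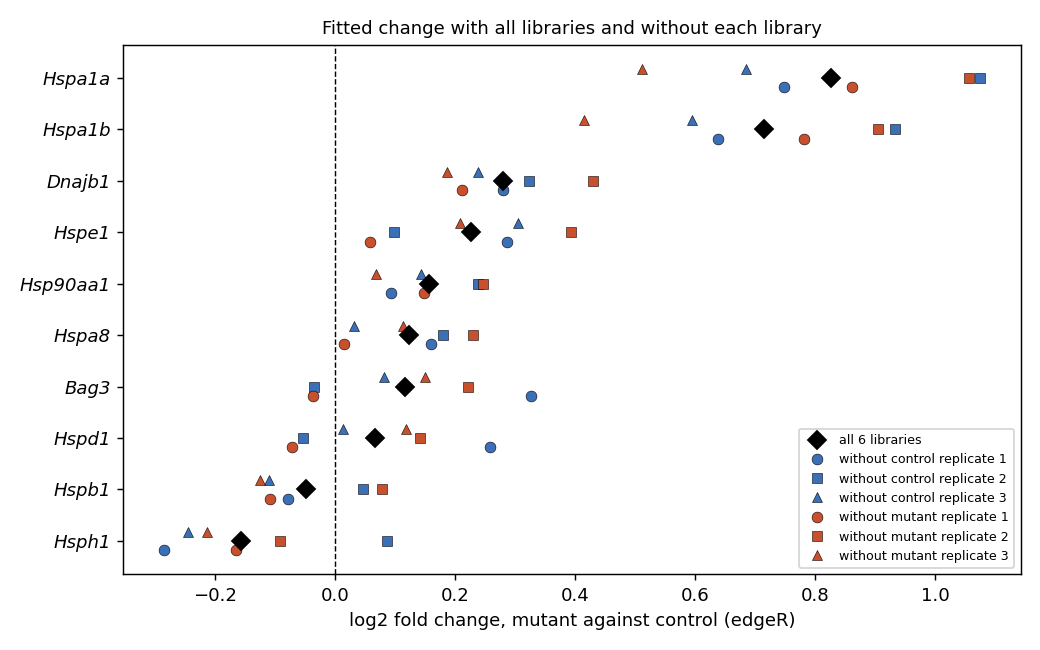
Log2 fold change of each of the 10 genes, mutants against controls, from edgeR with all 6 libraries (black diamonds) and with 1 library left out (blue, a control; red, a mutant; circle, square and triangle for replicates 1, 2 and 3), with a dashed line at 0. The values of Hspa1a run from 0.51 to 1.07 and those of Hspa1b from 0.41 to 0.93, and those of Hspb1, Hsph1, Hspd1 and Bag3 lie on both sides of 0.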

How the data were processed

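Reads of aortic valve RNA (TruSeq RNA kit) were aligned to mm10 by the authors with TopHat2 2.0.13 and Bowtie2, per the submitters' processing notes. The deposited values are estimated counts, the fragments that Cuffdiff 2.1.1 assigned to each gene, not scaled for library size. Columns were matched to groups by the sample descriptions. Counts were rounded to whole numbers (1.66% to 1.87% of values per library were not whole). In R 4.3.3, a gene was tested if 3 or more libraries had 10 or more counts of it, with edgeR 4.0.16 (TMM, quasi-likelihood F test, two-sided, Benjamini-Hochberg over all 15354 genes, threshold 0.05). An exact permutation test of 3 against 3 cannot go below 0.1 and was not used. Centred levels used a prior count of 2. Standard errors were derived from the fold change and F.

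The 10 genes and the other lists were chosen with earlier results of these data known. The text names the members, their fixed relatives and regulators, and in each related list up to 2 tested genes with the smallest unadjusted p. Motifs were searched, and coding sequences aligned, in Python 3.11.15. Positions and lengths came from GENCODE M21. Alternatives were DESeq2 1.42.0, limma 3.58.1 (voom), other normalizations and filters, a replicate block, a cardiac covariate, summing Hspa1a and Hspa1b, and leaving out each library. The method was tested on simulated data.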

Additional observations from a re-analysis of the deposited data

How the results depend on the processing

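Under 16 alternatives, 149 of the 160 fold changes of the 10 genes kept their sign, and the count of genes with an adjusted p under 0.05 stayed at 0 of 10. The count over all genes was 26 in DESeq2. At an unadjusted threshold the counts were 529 genes in all and 2 of the 10. Signs turned for Hspb1 (0.012), Hsph1 (0.0029) and Hspd1 (-0.0077) with sample quality weights in limma-voom, and for Hspd1 (-0.0062) with the cardiac covariate. Leaving out 1 library at a time, the log2 fold change ran from -0.13 to 0.078 for Hspb1, from -0.29 to 0.087 for Hsph1, from -0.072 to 0.26 for Hspd1 and from -0.037 to 0.33 for Bag3. With a library left out, the signs turned without control replicate 2 for Hspb1 (0.047), Hsph1 (0.087), Hspd1 (-0.053) and Bag3 (-0.035), without mutant replicate 1 for Hspd1 (-0.072) and Bag3 (-0.037), and without mutant replicate 2 for Hspb1 (0.078). The median of the 10 stayed above 0, at its lowest 0.037 (mutant replicate 1 left out) and at its highest 0.27 (control replicate 1 left out). The cause of these changes was not tested.

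Same-numbered control and mutant libraries deviated together with r of 0.289, 0.0822 and 0.0313, and 0.289 was the largest r of any control with any mutant. Control replicate 2, however, was closest to mutant replicate 3 (r = 0.200). These values do not settle whether the numbers are pairs, and the main fit did not take them as pairs. With the replicate number as a block (replicate block), 0 genes and 0 of the 10 had an adjusted p under 0.05. The median of the 10 was 0.142, and 0 of the 10 had an unadjusted p under 0.05. The log2 fold changes of Hspa1a and Hspa1b were 0.797 and 0.689, beside 0.827 and 0.715 in the main fit. Over all genes, 814 had an unadjusted p under 0.05 with the block, beside 529 in the main fit.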
